A study of Homo sapiens with 9 samples.

Results

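The cancer-testis genes described here are MAGEA8, MAGEA1, MAGEA4, MAGEA10, MAGEA11, MAGEB1, MAGEB2, MAGEC1, MAGEC2 and CTCFL, measured as RNA in HSF-6, a human embryonic stem cell line, with and without butyrate and DZNep. Every probe set annotated to 1 of these 10 genes was taken, which gave 11 probe sets of 41091 that carry a single gene, with 2 for MAGEC2 and 1 for each other gene. The members were chosen by name with the signals of these same arrays known, in which MAGEA8 and CTCFL were high in treated cells. The differences of all 10 genes are therefore a description, and no test is given for them.

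The arrays fall into 3 groups of 3: HSF-6 (8) grown with butyrate and DZNep, HSF-6 (S9) grown with butyrate and DZNep, and untreated HSF-6 (8). Collection followed 11 passages, with 6 days of growth, and the labels give no dose. Butyrate inhibits histone deacetylases, and DZNep, 3-deazaneplanocin A, inhibits S-adenosylhomocysteine hydrolase and thereby methyl transfer to histones and other substrates. Untreated HSF-6 (S9) cells are not among the 3 groups, so for treated HSF-6 (S9) against untreated HSF-6 (8) the effects of subline and treatment cannot be told apart, and that comparison shares its 3 control arrays with treated against untreated HSF-6 (8). Separate cultures are not stated for the arrays within a group, so any p-value measures the spread between these arrays, which may be technical. Array 3 of each HSF-6 (8) group stood apart from arrays 1 and 2. After removing group means, array 3 of treated HSF-6 (8) correlated at 0.49 with untreated array 3. With untreated arrays 1 and 2 it correlated at -0.31 and -0.38. For array 3 of treated HSF-6 (S9) these values were 0.34, -0.27 and -0.19. Results for MAGEA8, MAGEA11 and CTCFL are therefore also given with only arrays 1 and 2 of each group. That setting keeps array 2 of treated HSF-6 (S9), whose stem cell markers summed to 153550, against 100542 and 86187 on arrays 1 and 3. That sum was 100516 on array 1 of treated HSF-6 (8), close to array 1 of treated HSF-6 (S9). MAGEA8 was also close on these arrays (219 and 219), and CTCFL less so (268 and 238). Whether these arrays are independent was not tested.

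Cancer-testis genes are transcribed in male germ cells and in many tumours and are silent in most other tissues. The MAGE-A, MAGE-B and MAGE-C genes lie on the X chromosome and encode proteins that share a MAGE homology domain and bind RING-type ubiquitin ligases. CTCFL, also called BORIS, is the testis paralogue of the chromatin organiser CTCF, with a like set of zinc fingers. The promoters of many cancer-testis genes carry methylated CpG dinucleotides in tissues where the genes are silent.

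RefSeq annotates starts for 8 of the 10 genes in the promoter table used here (build GRCh38.p14), all but MAGEA1 and MAGEA10. The 250 bases before the start are shown for 3 genes with a single annotated start. MAGEA8 and MAGEA11 had higher signal in treated cells and MAGEB2 did not, so the reader can set them side by side. Capitals mark each CpG dinucleotide, of which there are 8, 18 and 15, against a median of 11 over 35116 windows of the same length. MAGEA8 is on the plus strand at chrX:149880933-149881182, MAGEA11 on the plus strand at chrX:149711810-149712059, and MAGEB2 on the plus strand at chrX:30215313-30215562.
MAGEA8: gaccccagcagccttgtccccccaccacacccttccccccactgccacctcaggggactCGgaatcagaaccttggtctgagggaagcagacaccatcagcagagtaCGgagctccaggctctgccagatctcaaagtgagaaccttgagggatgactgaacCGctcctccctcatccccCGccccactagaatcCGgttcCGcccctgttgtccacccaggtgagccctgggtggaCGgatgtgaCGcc
MAGEA11: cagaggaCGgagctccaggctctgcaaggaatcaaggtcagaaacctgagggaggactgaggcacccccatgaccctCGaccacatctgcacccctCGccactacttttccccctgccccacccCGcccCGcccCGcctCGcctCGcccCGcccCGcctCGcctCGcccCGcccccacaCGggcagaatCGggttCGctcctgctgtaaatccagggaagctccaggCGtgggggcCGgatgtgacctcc
MAGEB2: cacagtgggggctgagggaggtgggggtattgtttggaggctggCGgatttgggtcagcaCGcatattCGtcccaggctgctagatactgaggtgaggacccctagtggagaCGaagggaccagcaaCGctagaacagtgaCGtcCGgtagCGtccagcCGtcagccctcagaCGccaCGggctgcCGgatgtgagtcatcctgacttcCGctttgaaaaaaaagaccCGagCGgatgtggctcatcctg

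The letters CGGATGTG recur close to the starts of the MAGE genes and join a CpG to GGAT, a core that ETS-family transcription factors can bind. The motif was chosen after these sequences had been read. Searched on both strands of the 250 bases before each start, it was present for 6 of the 8 genes with a window, and for 10 of their 15 annotated starts. It was present in 0.561% of all 35116 windows. The site nearest to the start is shown for each gene, with the motif in capitals, and for MAGEA4, which has several annotated starts, that of its first start along the chromosome. The first annotated start of MAGEB1 along the chromosome has no match, so the MAGEB1 site is that of a later start.
MAGEA8: ccctgggtggaCGGATGTGacgcc
MAGEA11: ggcgtgggggcCGGATGTGacctcc
MAGEA4: cccaggtggccCGGATGTGacatccctgac
MAGEB1: ccacgggctgcCGGATGTGgctc
MAGEB2: aaagacccgagCGGATGTGgctcatcctg
MAGEC1: atgtgctttgcCGGATGTGctttcccggcg

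On the plus strand of GRCh38.p14 these windows are chrX:149881159-149881182 for MAGEA8, chrX:149712035-149712059 for MAGEA11, chrX:151912442-151912471 for MAGEA4, chrX:30247123-30247145 for MAGEB1, chrX:30215534-30215562 for MAGEB2 and chrX:141903852-141903881 for MAGEC1. The motif begins 13 bases before the annotated start of MAGEA8 and 14 bases before that of MAGEA11. This distance is 21 for the first start of MAGEA4, 12 for the later start of MAGEB1, 18 for MAGEB2 and 31 for MAGEC1. The motif thus stands at MAGEA8 and MAGEA11, whose signal was higher in treated cells. It also stands at MAGEA4, MAGEB1, MAGEB2 and MAGEC1, whose signal did not rise 2-fold. No match was found in the windows of MAGEC2 or of the 3 annotated starts of CTCFL on chromosome 20, which says only that these letters are not in those windows. The GGGCGG motif bound by SP1, which shares no full copy with CGGATGTG, was present on either strand for 6 of the 8 genes and in 42.6% of all windows. The CpG count ranged from 1 to 18 over the 15 member windows. CTCFL had 15, 7 and 2 at its 3 starts.

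Signals are MAS5 values on a linear scale. Differences are given as the difference between group means of log2(signal + 16) with the standard error (SE) from limma. A member was counted as higher where its 3 arrays all lay above the 3 arrays they were set against and the difference was at least 2-fold. By that rule MAGEA8, MAGEA11 and CTCFL were higher in treated than in untreated HSF-6 (8), 3 of the 10 genes, while 1.77% of all single-gene probe sets met it. The same 3 genes were higher in treated HSF-6 (S9) than in untreated HSF-6 (8), where 1.81% of probe sets met the rule. The members were chosen with these values known, so nothing is read from those shares. No member was higher by this rule in treated HSF-6 (S9) than in treated HSF-6 (8), where 0.236% of probe sets were, and no member was at least 2-fold lower without overlap. Probe sets lower by that rule made up 0.535% in treated against untreated HSF-6 (8), 1.21% in treated HSF-6 (S9) against untreated HSF-6 (8) and 0.662% in treated HSF-6 (S9) against treated HSF-6 (8). The median difference over the 11 probe sets was 0.05 in treated HSF-6 (8) and 0.08 in treated HSF-6 (S9), each minus untreated HSF-6 (8), against 0.02 and -0.02 over all single-gene probe sets.

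MAGEA8 encodes a MAGE-A protein whose function is little known. Its signal was 219, 296 and 196 on the arrays of treated HSF-6 (8), 219, 278 and 162 on those of treated HSF-6 (S9), and 6.44, 4.61 and 22.7 on those of untreated HSF-6 (8). All 6 treated arrays lay above every untreated array, and the treated sublines overlapped. MAGEA8 averaged 237 ± 52.4 in treated HSF-6 (8), 220 ± 57.8 in treated HSF-6 (S9) and 11.3 ± 9.96 in untreated HSF-6 (8) (SD, n = 3 arrays each). The difference from untreated HSF-6 (8) was 3.25 ± 0.31 (SE) for treated HSF-6 (8) and 3.14 ± 0.31 for treated HSF-6 (S9), and between the treated sublines, HSF-6 (S9) minus HSF-6 (8), it was -0.11 ± 0.31. In bulk RNA a larger share of cells that transcribe the gene and more RNA per cell cannot be told apart. Because the untreated signal is so low, the size of the difference depends on the number added before taking logs. With 1 added to each value it was 4.56 in treated HSF-6 (8) and 4.43 in treated HSF-6 (S9), and with 64 added it was 1.99 and 1.90. With only the first and second arrays, and 16 added, it was 3.65 in treated HSF-6 (8) and 3.61 in treated HSF-6 (S9).

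MAGEA11 encodes a MAGE-A protein that binds the androgen receptor and modulates its activity. It had 64.8, 61.2 and 102 in treated HSF-6 (8), 61.1, 42.6 and 51.3 in treated HSF-6 (S9), and 2.12, 15.5 and 17.8 in untreated HSF-6 (8). Every treated array was above every untreated one, yet only the third array of treated HSF-6 (8) exceeded the median of all probe sets on its own array. The means were 75.9 ± 22.4 in treated HSF-6 (8), 51.7 ± 9.27 in treated HSF-6 (S9) and 11.8 ± 8.46 in untreated HSF-6 (8) (SD, n = 3 arrays each). The differences from untreated HSF-6 (8) were 1.75 ± 0.29 and 1.33 ± 0.29 (SE) in treated HSF-6 (8) and in treated HSF-6 (S9). With 64 added to each value they were 0.88 and 0.61, under 2-fold, so that MAGEA11 was no longer counted as higher, and with 1 added they were 2.92 and 2.40. With only the first and second arrays they were 1.72 and 1.49. The 3 arrays of treated HSF-6 (S9) lay below those of treated HSF-6 (8), by a narrow margin, with a difference of -0.42 ± 0.29.

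CTCFL was the only member above the array median on 2 of the 3 untreated arrays. It gave 268, 442 and 261 in treated HSF-6 (8), 238, 320 and 471 in treated HSF-6 (S9), and 81.9, 68.5 and 8.43 in untreated HSF-6 (8). The treated groups overlapped each other and stood above all untreated arrays, of which the third was far lower than the other 2. The means were 324 ± 103 in treated HSF-6 (8), 343 ± 118 in treated HSF-6 (S9) and 53.0 ± 39.1 in untreated HSF-6 (8) (SD, n = 3 arrays each). The difference from untreated HSF-6 (8) was 2.49 ± 0.51 (SE) in treated HSF-6 (8) and 2.56 ± 0.51 in treated HSF-6 (S9). Without the third untreated array these were 1.86 and 1.93, since that array alone held the low untreated value, and with only the first and second array of each group they were 1.99 and 1.68. Between the treated sublines the difference, HSF-6 (S9) minus HSF-6 (8), was 0.07 ± 0.51. CTCF, the paralogue expressed in most cells, had a signal of 2974 ± 134 in treated HSF-6 (8), 2964 ± 72.5 in treated HSF-6 (S9) and 3088 ± 178 in untreated HSF-6 (8) (SD, n = 3 arrays each). Its change from untreated HSF-6 (8) was -0.05 ± 0.14 in treated HSF-6 (8) (limma adjusted p = 0.983) and -0.06 ± 0.14 in treated HSF-6 (S9) (0.900).

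**Figure D1:**
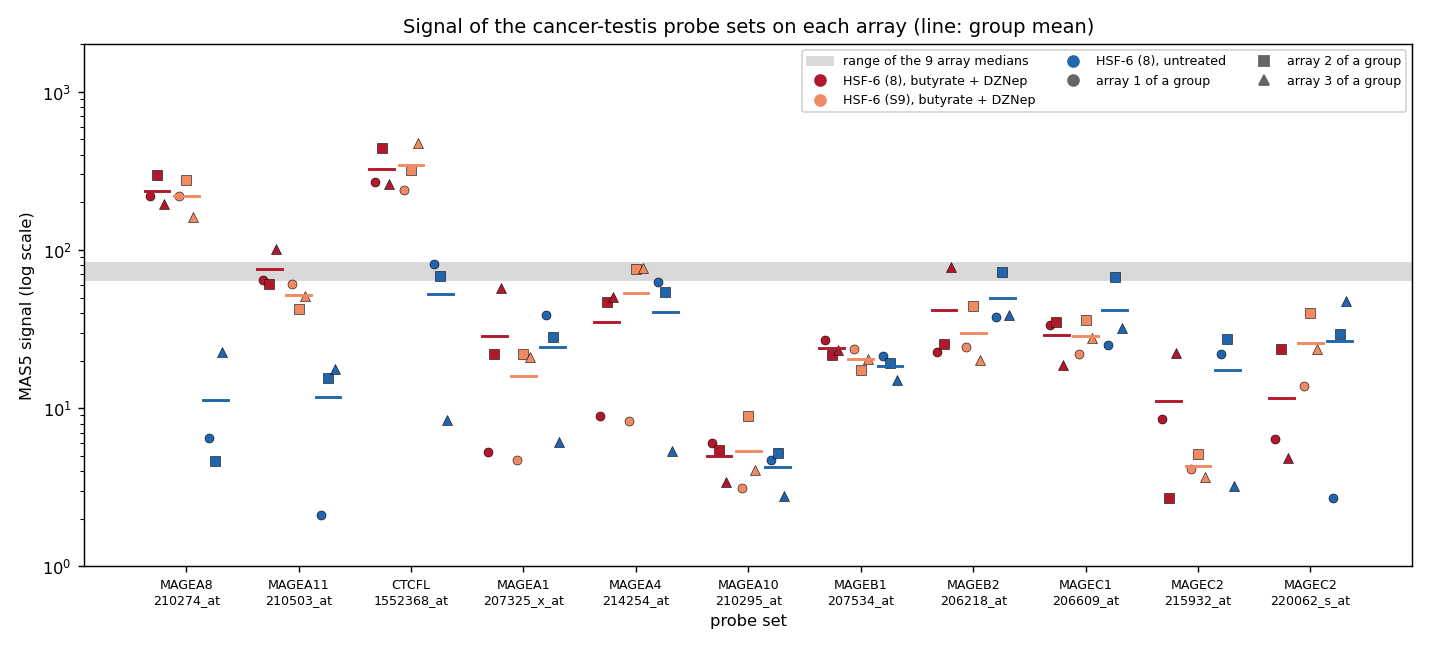
MAS5 signal (log axis) of the 11 probe sets on each array, with the array of a group marked by the symbol, the group mean by a line and the range of the 9 array medians in grey. Treated arrays of MAGEA8, MAGEA11 and CTCFL all lie above the untreated arrays, and the other 8 probe sets mostly lie under the grey band in every group.

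The other 7 genes stayed low. Their 8 probe sets gave signals from 2.70 to 77.6, and only 4 of 72 values exceeded the median of their array, which lay between 64.8 and 82.9. The file holds no detection calls, so whether such a signal comes from RNA of the gene was not tested. Their differences from untreated HSF-6 (8) ran from -0.52 to 0.21 in treated HSF-6 (8) and from -0.64 to 0.27 in treated HSF-6 (S9), all short of 2-fold with 16 added and all 9 arrays. A MAGEC2 probe set passed 2-fold with 1 added, at -1.40 in treated HSF-6 (S9), and the other MAGEC2 probe set did so at -1.02 in treated HSF-6 (8) without the first untreated array.

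Among the MAGE-A genes, MAGEA1, the first human gene found to encode a tumour antigen recognised by T cells, had 5.30, 22.1 and 57.8 in treated HSF-6 (8), 4.68, 21.9 and 21.1 in treated HSF-6 (S9), and 38.8, 28.1 and 6.09 in untreated HSF-6 (8). The groups overlapped, with a low array in each, and the x_at suffix of its probe set marks probes that may bind other transcripts. MAGEA4, an antigen used as a target of T cell therapy, varied most: it had 8.96, 46.6 and 50.3 in treated HSF-6 (8), 8.26, 75.7 and 77.2 in treated HSF-6 (S9), and 62.8, 54.2 and 5.39 in untreated HSF-6 (8). Its first treated arrays and the third untreated array were low, so its differences of -0.06 ± 0.67 and 0.27 ± 0.67 (SE) have wide errors. MAGEA10, another MAGE-A antigen of tumours, had the lowest range, from 2.80 to 8.90 over all 9 arrays. Its differences were 0.05 ± 0.19 in treated HSF-6 (8) and 0.07 ± 0.19 in treated HSF-6 (S9).

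The MAGE-B genes lie in a separate cluster on the short arm of the X chromosome. MAGEB1 averaged 24.0 ± 2.61 in treated HSF-6 (8), 20.5 ± 3.13 in treated HSF-6 (S9) and 18.6 ± 3.30 in untreated HSF-6 (8) (SD, n = 3 arrays each). Its treated HSF-6 (8) arrays all lay above the untreated ones, but with a difference of only 0.21 ± 0.18. MAGEB2 averaged 41.9 ± 31.0 in treated HSF-6 (8), 29.7 ± 13.0 in treated HSF-6 (S9) and 49.6 ± 19.7 in untreated HSF-6 (8), with overlapping groups.

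The MAGE-C genes, MAGEC1 and MAGEC2, which encode tumour antigens, did not separate the groups either. MAGEC1 averaged 29.1 ± 9.12 in treated HSF-6 (8), 28.6 ± 7.12 in treated HSF-6 (S9) and 41.6 ± 23.1 in untreated HSF-6 (8) (SD, n = 3 arrays each). MAGEC2, whose protein binds the corepressor TRIM28, was read by 2 probe sets. They differed in sign in treated HSF-6 (S9), with -0.64 ± 0.35 for the probe set shown first in the plot of signals and 0.10 ± 0.46 for the other, and were -0.28 ± 0.35 and -0.52 ± 0.46 in treated HSF-6 (8), each minus untreated HSF-6 (8).

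**Figure D2:**
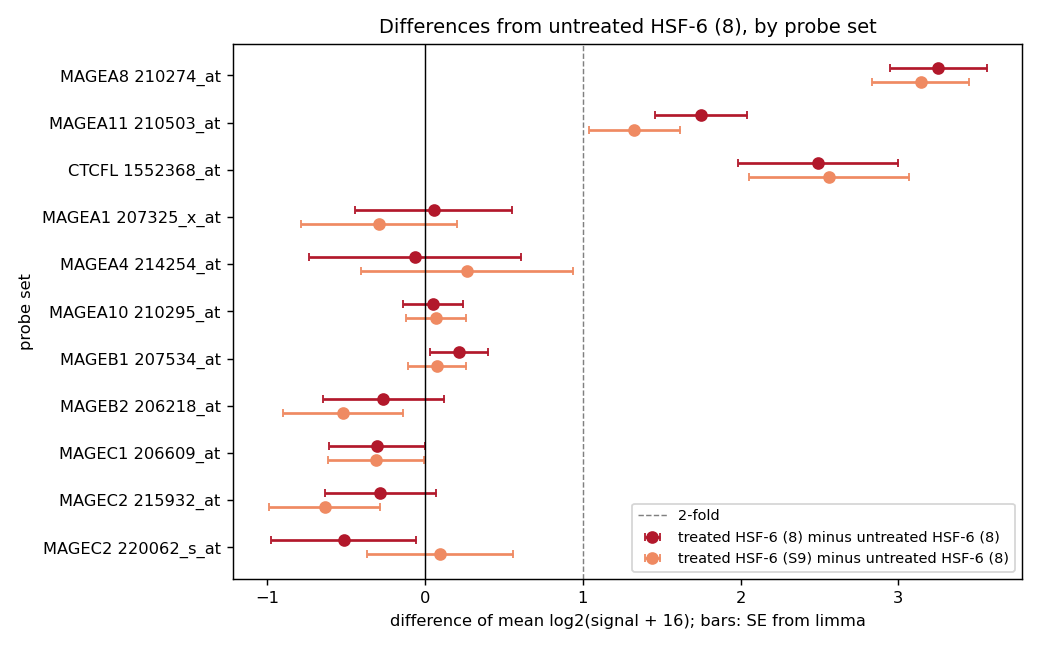
Difference of mean log2(signal + 16) from untreated HSF-6 (8) for each probe set (points) with its SE from limma (bars) in both treated sublines. MAGEA8, CTCFL and MAGEA11 lie to the right of the 2-fold line, from 1.33 to 3.25, and the other 8 probe sets lie between -0.64 and 0.27.

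For genes that are not members, a filter kept probe sets above their array's median on at least 3 of the 9 arrays, which left 13518 genes for limma. A gene was called at an adjusted p under 0.05 and a change of at least 2-fold. Of the members, MAGEA8 and CTCFL passed this filter and the other 8 did not. MAGEA8 passed only through its treated arrays, and CTCFL, above the median on 2 untreated arrays, also needed treated arrays to pass. In treated minus untreated HSF-6 (8), 0.747% of the tested genes were called higher and 0.0962% lower. In treated HSF-6 (S9) against untreated HSF-6 (8) these shares were 0.895% and 0.289%. Counts at an unadjusted limma p under 0.05 are given below without the share of all tested genes at that level. Nothing is therefore read from those counts.

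Of 86 further X-linked cancer-testis genes, 39 had a single-gene probe set, and only 6 of those passed the filter, which a high treated signal can itself satisfy. Limma called 0 of these 6 in either comparison, with 1 at an unadjusted p under 0.05 in treated HSF-6 (8) and 2 in treated HSF-6 (S9), all in the upward direction. MAGEA6, a MAGE-A gene nearly identical to MAGEA3, had the largest change in both comparisons. Its signal averaged 177 ± 110 in treated HSF-6 (8), 274 ± 189 in treated HSF-6 (S9) and 24.6 ± 0.43 in untreated HSF-6 (8) (SD, n = 3 arrays each). The changes were 2.09 ± 0.63 (SE, limma adjusted p = 0.237) and 2.48 ± 0.63 (0.106). Without the first array of treated HSF-6 (S9) MAGEA6 had 3.29 in treated HSF-6 (S9) against untreated HSF-6 (8) (adjusted p = 0.0144), a call. For MAGEA12 the value was 1.38 ± 0.45 in treated HSF-6 (S9) against untreated HSF-6 (8) (adjusted p = 0.191), and 1.92 without the first array of treated HSF-6 (S9) (0.0488). MAGEA6 was under the array median on every untreated array, so it passed the filter only through treated arrays. This list was also chosen with earlier results of these data known. The adjusted p-values of MAGEA6 and MAGEA12 are therefore not read as support. CTAG2, a relative of the tumour antigen gene CTAG1B, had 1.54 ± 0.80 in treated minus untreated HSF-6 (8) (adjusted p = 0.631) and 0.72 in treated HSF-6 (S9) against untreated HSF-6 (8) (0.75). A second CTAG2 probe set, under the filter, had 0.06 and -0.12 in these comparisons. The signal of such near-identical genes cannot be split by these probe sets, so the MAGEA6 and MAGEA12 values may hold signal of other MAGE-A genes.

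With no filter, the 51 single-gene probe sets of these 39 genes had a median difference of -0.03 in treated HSF-6 (8) and -0.01 in treated HSF-6 (S9), each minus untreated HSF-6 (8). Of the 51 probe sets, 1 was at least 2-fold higher without overlap in each comparison, that of MAGEA6, and in treated HSF-6 (S9) 2 were lower, those of MAGEB4 and TEX13B. A further 32 probe sets are shared by several cancer-testis genes of the X chromosome. Of these, 4 were at least 2-fold higher without overlap in treated HSF-6 (8) and 5 in treated HSF-6 (S9), and 1 and 0 were lower. Their differences ran from -1.01 to 2.96 in treated HSF-6 (8), and from -0.99 to 3.38 in treated HSF-6 (S9). By the same rule, 1.77% of all single-gene probe sets were higher and 0.535% lower in treated HSF-6 (8). For treated HSF-6 (S9) these shares were 1.81% and 1.21%. The lists were chosen with earlier results known, so nothing is read from these counts.

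The autosomal testis genes numbered 38, of which 9 were tested. GPAT2 and DPEP3 were called higher in both comparisons and the other 7 were not called. At an unadjusted limma p under 0.05, 2 of the 9 were higher in each comparison. At that level 3 were lower in treated HSF-6 (S9) and 0 in treated HSF-6 (8). The share of all tested genes at that level is not given, so nothing is read from these counts. GPAT2, which encodes a testis acyltransferase, averaged 377 ± 64.2 in treated HSF-6 (8), 352 ± 88.9 in treated HSF-6 (S9) and 9.74 ± 4.20 in untreated HSF-6 (8) (SD, n = 3 arrays each). Its changes were 3.93 ± 0.24 (SE, limma adjusted p = 6.83e-05) and 3.82 ± 0.24 (8.39e-05). DPEP3, a membrane dipeptidase gene of the testis, averaged 1174 ± 660 in treated HSF-6 (8), 1371 ± 613 in treated HSF-6 (S9) and 171 ± 71.3 in untreated HSF-6 (8), with changes of 2.61 ± 0.47 (adjusted p = 0.0405) and 2.89 ± 0.47 (0.0212). In treated HSF-6 (8) DPEP3 was no longer called (adjusted p of 0.0722 to 0.112) once any untreated array, array 1 or 2 of treated HSF-6 (8), or array 1 of treated HSF-6 (S9) was left out. In treated HSF-6 (S9) it was no longer called (0.0501 to 0.0729) once any untreated array or any array of treated HSF-6 (S9) was left out. The median change of the 9 tested genes was 0.24 in treated HSF-6 (8) and 0.11 in treated HSF-6 (S9), against 0.0031 and 0.0050 for all tested genes. With no filter, the median over the 50 single-gene probe sets of this list was 0.04 and 0.07. GPAT2 passed the filter only through its treated arrays, and this list was chosen with earlier results of these data known. Its adjusted p is therefore not read as support.

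The MAGE genes of somatic tissues are expressed outside the germ line. Of 12 such genes 9 were tested, each above the array median on all 9 arrays, and limma called 0, with 0 at an unadjusted p under 0.05, in either comparison. Among the 9 tested genes MAGED1, a regulator of neurotrophin signalling and cell death, had the largest positive change. It was 0.18 ± 0.39 in treated HSF-6 (8) (limma adjusted p = 0.974) and 0.67 ± 0.39 in treated HSF-6 (S9) (0.490). MAGEE1 had -0.23 ± 0.28 in treated HSF-6 (8) (0.936), and TRO, which encodes the adhesion protein trophinin, had 0.58 ± 0.32 in treated HSF-6 (S9) (0.467). The median change was -0.04 and 0.18 in these comparisons. With no filter, the 15 probe sets of this list ran from -0.23 to 0.64 in treated HSF-6 (8). In treated HSF-6 (S9) they ran from -0.06 to 0.77.

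**Figure D3:**
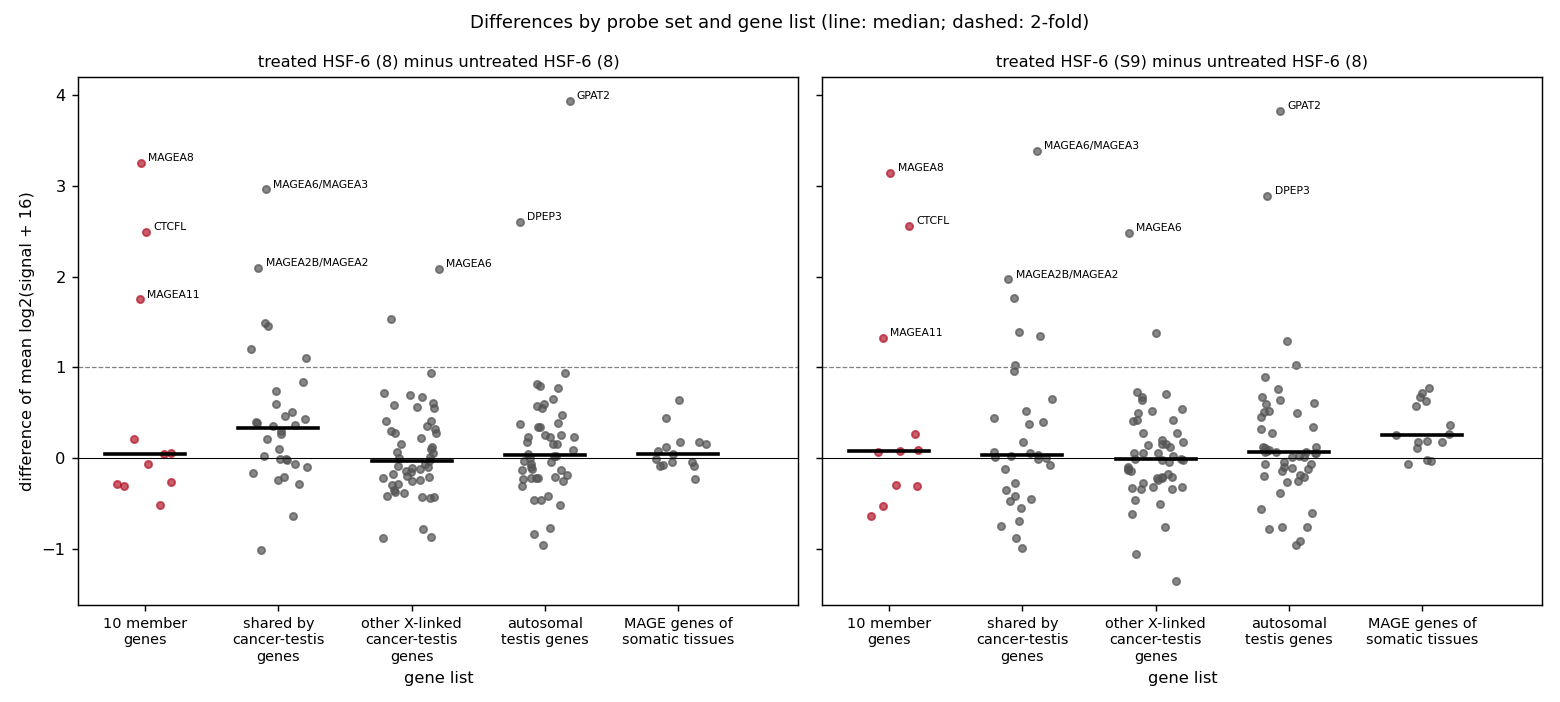
Difference of mean log2(signal + 16) from untreated HSF-6 (8) for each probe set (points) of 5 gene lists, in treated HSF-6 (8) on the left and treated HSF-6 (S9) on the right, with the list median as a line. List medians lie between -0.03 and 0.33, while single probe sets such as those of MAGEA8, CTCFL, GPAT2 and MAGEA6 lie far above the rest of their list.

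Genes that methylate DNA or silence chromatin were listed because cancer-testis genes are known targets of such silencing. Also on this list are TET1, TET2, TET3 and CTCF, which do not methylate DNA. All 29 tested genes of 30 listed gave 0 calls in both comparisons, with 2 higher at an unadjusted p under 0.05 in each. DNMT3L, the cofactor of de novo DNA methyltransferases in germ cells, averaged 364 ± 182 in treated HSF-6 (8), 280 ± 65.7 in treated HSF-6 (S9) and 111 ± 31.1 in untreated HSF-6 (8) (SD, n = 3 arrays each). Its changes were 1.50 ± 0.34 (SE, limma adjusted p = 0.104) and 1.23 ± 0.34 (0.135). UHRF1, which brings DNMT1 to replicating DNA, had 1.37 ± 0.35 (adjusted p = 0.137) in treated HSF-6 (8) and 1.27 ± 0.35 (0.129) in treated HSF-6 (S9). In treated HSF-6 (8) UHRF1 was called with a replicate block (adjusted p = 0.0127), and in both comparisons with only the first and second arrays of each group (0.0364 and 0.0345). Between the treated sublines, HSF-6 (S9) minus HSF-6 (8), limma called 0 genes of any of these 4 lists, with 0 at an unadjusted p under 0.05, and 0.0074% of all tested genes were called higher. RNA levels do not measure the activity of these enzymes.

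Limma called none of the neighbours EOLA2, TMEM185A, RBM38, RAE1 and PMEPA1, the tested genes within 3 places of MAGEA8, MAGEA11 or CTCFL that are not members. MAGEA11 lies 3 protein-coding genes before MAGEA8, with HSFX1 and MAGEA9 between them, neither of which has a single-gene probe set. The probe set shared by MAGEA9 and its copy MAGEA9B ranged from 10.9 to 100.4 in treated HSF-6 (8), from 20.9 to 69.7 in treated HSF-6 (S9) and from 20.9 to 70.2 in untreated HSF-6 (8), so its groups overlapped. EOLA2, the next gene after MAGEA8, had 0.12 in treated HSF-6 (8) (limma adjusted p = 0.936) and 0.33 in treated HSF-6 (S9) (0.379), each minus untreated HSF-6 (8). TMEM185A, just before MAGEA11, had 0.62 (0.220) and 0.70 (0.110), but its 3 probe sets disagreed, the lowest giving -0.36 and -0.33. RBM38, an RNA-binding protein gene just before CTCFL, had -0.07 (limma adjusted p = 0.983) and -0.19 (0.708) in the same comparisons. PCK1, the gluconeogenic enzyme gene just after CTCFL, was under the filter, with differences of 0.39 and 0.27. Larger values lay 3 places away. PMEPA1, after CTCFL, had -0.76 (limma adjusted p = 0.511) and -0.98 (0.222), and all of its 3 probe sets were lower. MAMLD1, after MAGEA8 and under the filter, had 0.91 and 0.70. SPO11, before CTCFL and under the filter, had -0.95 and 0.08.

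Across the 9 arrays, the tested genes whose log2(signal + 16) was most like that of MAGEA8 were FAM90A1 (Pearson r = 0.984), MINDY3 (0.978), CEBPZOS (0.977), EMC4 (0.971) and ENKD1 (0.970). For CTCFL they were TBC1D15 (0.989), ANKRD35 (0.986), MXRA8 (0.978), OLFML2A (0.977) and MYRF (0.969). MAGEA8 and CTCFL themselves had r = 0.817. These correlations describe arrays that fall into a low untreated and a high treated set, and they have no test. FAM90A1 averaged 243 in treated HSF-6 (8), 255 in treated HSF-6 (S9) and 11.4 in untreated HSF-6 (8), a pattern close to that of MAGEA8.

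Marker genes checked the cell type and other cells a culture could hold. The stem cell markers SOX2, NANOG, LIN28A, DNMT3B and DPPA4 had summed signals of 88213 to 103381 in treated HSF-6 (8), 86187 to 153550 in treated HSF-6 (S9) and 89565 to 130861 in untreated HSF-6 (8). Germ cell markers summed to 262 to 328 in treated HSF-6 (8), 181 to 285 in treated HSF-6 (S9) and 522 to 898 in untreated HSF-6 (8), over 5 of 6 listed, with DDX4, PRM1 and NANOS3 under the array median on every array. DAZL, the germ cell marker that passed the filter, had -1.59 ± 0.41 in treated HSF-6 (8) (limma adjusted p = 0.143) and -1.88 ± 0.41 in treated HSF-6 (S9) (0.0664), each minus untreated HSF-6 (8). The 6 trophoblast markers summed to 1784 to 2538 in treated HSF-6 (8), 1715 to 2675 in treated HSF-6 (S9) and 752 to 1086 in untreated HSF-6 (8), and GATA3 was called higher in both comparisons. The 6 endoderm markers summed to 1037 to 6206 in treated HSF-6 (8), 1097 to 1418 in treated HSF-6 (S9) and 334 to 630 in untreated HSF-6 (8), with the highest sum on the third array of treated HSF-6 (8). The 6 stromal markers summed to 11980 to 19808 in treated HSF-6 (8), 12047 to 12818 in treated HSF-6 (S9) and 9244 to 9763 in untreated HSF-6 (8). They did not move together. Against untreated HSF-6 (8), probe sets of COL1A1 and COL3A1 were at least 2-fold higher without overlap in treated HSF-6 (8), and a DCN probe set was lower. In treated HSF-6 (S9) probe sets of COL1A2 and COL3A1 were higher and 0 were lower. None of the measured markers of these lists was at 0 on any array, and the part of such cells in the cancer-testis signal was not tested. On the array with the highest endoderm sum MAGEA8 had 196, its lowest value in treated HSF-6 (8), CTCFL had 261, also its lowest there, and MAGEA11 had 102, its highest.

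**Figure D4:**
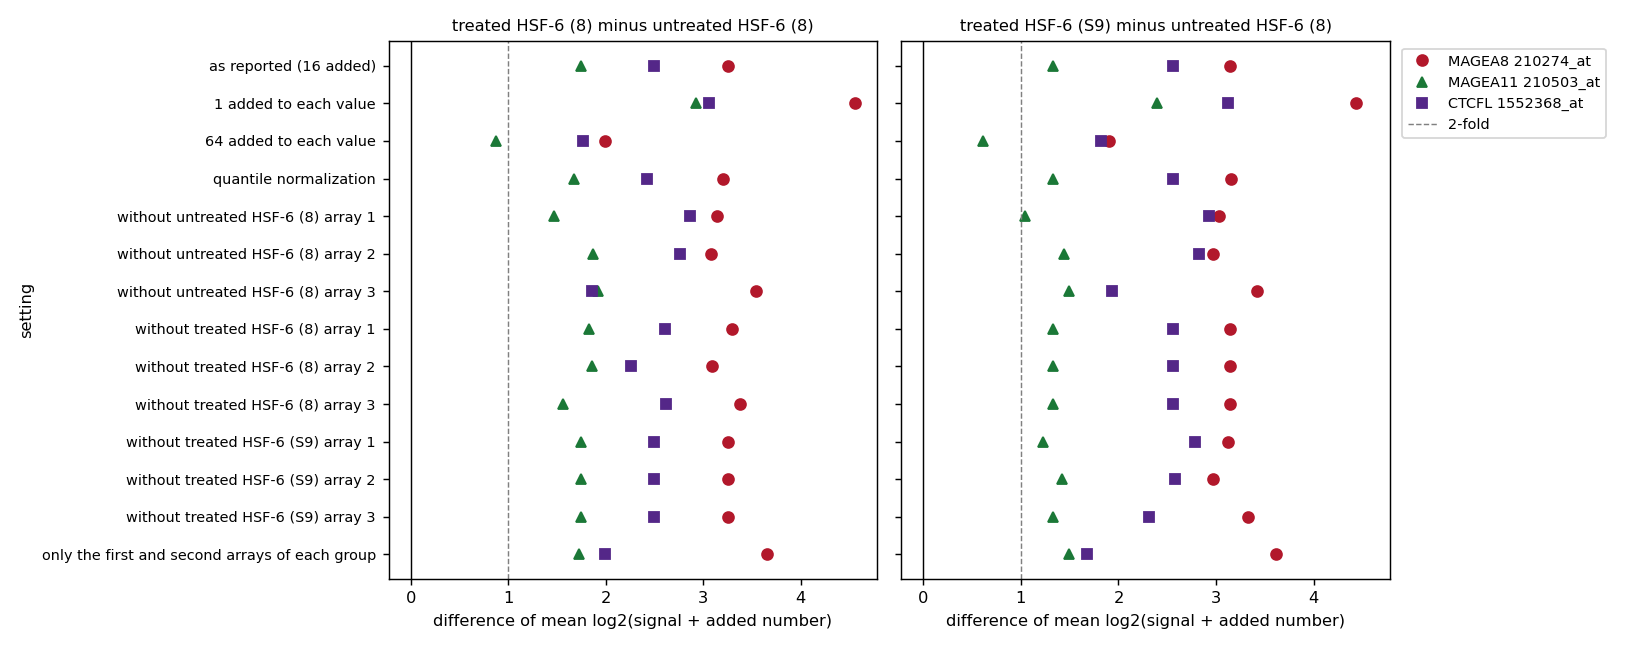
Difference of mean log2 signal from untreated HSF-6 (8) for MAGEA8, MAGEA11 and CTCFL under each setting, in treated HSF-6 (8) on the left and treated HSF-6 (S9) on the right. All points are positive, and the only ones left of the 2-fold line are those of MAGEA11 with 64 added to each value (0.88 and 0.61).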

How the data were processed

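The deposited table gives MAS5 signal for 54675 probe sets on 9 arrays, which the authors made with Affymetrix Expression Console and MAS5, per the submitters' processing notes; no version is given in the sources used. Trimmed means of the arrays ranged from 500.061 to 500.076, so all had been scaled to a common level. Gene names came from the platform annotation by Entrez number and were updated through RefSeq: 41091 probe sets had 1 gene (41037 matched), 1801 several and 11721 none.

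Here 16 was added to each signal before taking log2, so changes of dim genes are understated. For genes other than the members, each gene was read from its brightest kept probe set. All 9 arrays entered 1 linear model (lmFit and eBayes of limma 3.58.1 under R 4.3.3, with 6 residual degrees of freedom). Two-sided p-values received Benjamini-Hochberg adjustment across 13518 genes. The SE of members came from the same model over all single-gene probe sets without a filter. The limma fit and the calling rule were tested on simulated data, drawn with independent noise for genes already filtered. The filter, the choice of probe set and spread shared between arrays were not tested in this way. The number of arrays limits the precision.

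The members and gene lists were chosen with earlier results of these data known. The rule for named genes took all members, up to 4 called genes of each list or else the 2 largest changes, CTCF, and for MAGEA8 and CTCFL the 5 genes with the highest Pearson r. Neighbours were taken by position, 3 on each side. The prime marks of the sample titles were checked as a pairing: after removing group means, same-mark arrays correlated at 0.21, 0.26 and 0.49 between treated and untreated HSF-6 (8), 0.18, 0.20 and 0.25 between the treated sublines, and -0.03, 0.08 and 0.34 between treated HSF-6 (S9) and untreated HSF-6 (8). Arrays with different marks correlated at -0.38 to 0.32, -0.21 to 0.02 and -0.27 to 0.26 in these comparisons, so marks 1 and 2 are not set apart by pairing in treated against untreated HSF-6 (8). Alternatives were other added numbers, quantile normalization, other filters, averaging probe sets per gene, a replicate block, another eBayes setting, fits of 2 groups, and leaving out arrays.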

Additional observations from a re-analysis of the deposited data

Results flagged for a closer look

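Probe sets shared by several cancer-testis genes entered no test, and 9 results from 6 of them showed signal above the untreated arrays. The probe set of MAGEA6 and MAGEA3, X-linked MAGE-A genes, had 82.9, 351 and 126 in treated HSF-6 (8), 64.2, 330 and 433 in treated HSF-6 (S9), and 9.06, 5.38 and 4.45 in untreated HSF-6 (8). Its difference from untreated HSF-6 (8) was 2.96 for treated HSF-6 (8) and 3.38 for treated HSF-6 (S9). MAGEA2 and its copy MAGEA2B were read by 2 such probe sets, with differences of 1.46 and 2.10 for treated HSF-6 (8) and 1.76 and 1.97 for treated HSF-6 (S9). In both sublines every treated array lay above every untreated array for these 3 probe sets.

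Other probe sets met the rule in 1 subline each. A probe set of CTAG1A and CTAG1B, which encode the tumour antigen NY-ESO-1, had 61.7, 7.05 and 84.8 in treated HSF-6 (8) and 5.45, 4.80 and 2.31 in untreated HSF-6 (8). Its difference was 1.49 for treated HSF-6 (8), with a second array close to the untreated ones, and 0.65 for treated HSF-6 (S9), and the other 2 probe sets of that pair had 0.52 and -0.00 for treated HSF-6 (8). For treated HSF-6 (S9) 1 of the 3 probe sets of SSX2 and SSX2B had 1.35, while the other 2 had 0.18 and 0.0059 and a probe set shared with SSX3 had 0.37. The 1 probe set of CSAG2 and CSAG3 had 1.39 for treated HSF-6 (S9). For treated HSF-6 (8) these first-named probe sets of SSX2 and CSAG2 had 0.40 and 1.20. Whether these differ between the sublines was not tested.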

How the results depend on the processing

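Each of 84 results was put under 13 to 19 alternatives. Among them, 0 called gene changes and 0 differences of members counted as higher changed direction. Many of the 84 are counts, which have no direction, and the members were chosen with these arrays known, so this adds no support. Differences near 0, such as those of MAGEA1 and MAGEA4, changed sign under some alternatives. MAGEA8 differed from untreated HSF-6 (8) by 4.56 in treated HSF-6 (8) and 4.43 in treated HSF-6 (S9) with 1 added, by 1.99 and 1.90 with 64 added, and by 3.61 in treated HSF-6 (S9) with only the first and second arrays, where CTCFL had 1.68. The count of members higher was 2 in place of 3 in both comparisons with 64 added and equal in the other 24 of 26 alternatives. Genes called numbered 114 in treated minus untreated HSF-6 (8), 160 in treated HSF-6 (S9) against untreated HSF-6 (8) and 1 between the treated sublines. With a filter at the 75th percentile they numbered 65, 98 and 0, and with no filter the count was 96 in treated HSF-6 (S9) and 0 between the treated sublines. The count between the treated sublines was also 0 with 64 added, with the other eBayes setting, with only the 2 groups compared in the fit, and with only the first and second arrays. Leaving out 1 array gave 56 to 121, 55 to 243 and 0 to 1 calls. With a replicate block there were 162, 255 and 1 calls, and in treated HSF-6 (S9) MAGEA6 (adjusted p = 0.0455) and UHRF1 (0.0174) were called. The MAGEA6 call is not read as support, since MAGEA6 passed the filter only through treated arrays. Same-mark arrays of treated HSF-6 (S9) and untreated HSF-6 (8) had r from -0.03 to 0.34, so there the marks are not a pairing. The DPEP3 call in treated HSF-6 (8) was lost with 1 added (0.0528), quantile normalization (0.0627), no filter (0.066), 2 groups in the fit (0.0842) and with only the first and second arrays (0.0588). The causes of these shifts were not tested. Signals of MAGEA11 and of the 8 probe sets of the 7 low genes lay mostly near or under the array median. The table has no detection call for them, and 3 arrays a group limit the precision.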
